A study of Mus musculus with 6 samples.

Results

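The genes described here convert, sense and answer thyroid hormone: the deiodinases Dio3 and Dio2, the receptors Thra and Thrb, the hormone-responsive factor Klf9 and the corepressor Ncor1. They are 6 of 23462 genes with a symbol on a mouse microarray, and every probe whose transcript accession belongs to them was taken, which gave 13 of the 56605 probes other than controls. The set was put together with earlier results of these arrays in view, and Dio3 is in it as a gene at least 2-fold lower with PNP whose groups did not overlap. The contrast of PNP with untreated cells is therefore described for these genes with its standard error and is not tested.

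RNA came from TM4 cells, an established mouse testicular somatic line commonly used as a model of Sertoli cells, the cells that nurse developing germ cells. PNP cultures received 10 µM 4-nitrophenol (a nitrated phenol present in diesel exhaust and left by the breakdown of some organophosphate insecticides) for 24 h, and untreated cultures received 0 µM for the same 24 h. There were 3 samples in each group, each on its own single-colour Agilent array, and the labels do not say whether the 3 were separate cultures, so the spread between them may be technical. Only 3 arrays per group limit the precision of every value below. RNA of a whole culture was measured, so fewer cells carrying a transcript and less of it per cell cannot be told apart.

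Thyroid hormone reaches its target cells mostly as the prohormone T4. Inside the cell the deiodinase DIO2 turns T4 into the active T3, whereas DIO3 destroys both, and the balance of these enzymes sets how much hormone the nucleus sees. The receptors encoded by Thra and Thrb sit on DNA together with retinoid X receptors, repress their target genes through corepressors such as NCOR1 when no hormone is bound, and activate them through coactivators when T3 binds. In the testis, T3 acting on immature Sertoli cells through the Thra receptor ends their proliferation and drives their maturation.

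The arrays lay on 3 slides. Slide 3 held PNP replicates 2 and 3, slide 2 held PNP replicate 1 and untreated replicate 3, and slide 1 held untreated replicates 1 and 2. On slides 1 and 3 the slide and the treatment cannot be told apart, and slide 2 alone carries both groups, with 1 array each. Array position 2 on a slide held PNP replicates 1 and 3 and untreated replicate 2, and array position 1 held PNP replicate 2 and untreated replicates 1 and 3. An array had 47.8% to 57.9% of its probes clear of background and 0 saturated spots.

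TM4 cells carried most, but not all, of the Sertoli markers looked for. Of 19 such genes, 15 were well above background on all 6 arrays, among them Sox9, Wt1 and Gata4, transcription factors of the supporting lineage, and Dhh, Inha and Inhbb, which encode secreted Sertoli signals. Amh, Fshr and Cldn11, which mark the Sertoli cell as a source of anti-Müllerian hormone, a target of FSH and a builder of tight junctions, were above background on no array, and Gata1 was on 1. The 15 measured markers summed to between 15.2 and 18.6 times the 75th percentile signal on PNP arrays, and to between 17.5 and 20.4 times on untreated arrays. Of the 15, 0 passed an adjusted p of 0.05 in limma, as 0 of all 21479 genes and unnamed transcripts did (0%). Their log2 differences, PNP minus untreated, were above zero for 6 and below for 9, with a median of -0.16. Sox9 had the smallest p. Its log2 level relative to the array's 75th percentile was -0.65, -0.66 and -1.15 with PNP, against 0.12, 0.09 and -0.24 untreated, without overlap and in the order slide 3 below slide 2 below slide 1, and gave -0.81 ± 0.23 (limma, adjusted p = 0.303), while its other probe gave -0.04. Rhox5, a homeobox gene of Sertoli cells, gave -0.44 ± 0.22 without overlap, with its other probe at -0.46 (limma, adjusted p = 0.543). Of the 7 Leydig cell markers on the array 0 were above background on any of them. All 4 peritubular markers, 3 of 8 germ cell markers and 0 of 4 endothelial markers could be measured. Of the peritubular markers Acta2, Myh11, Des and Cnn1, the smooth muscle actin gene Acta2 was bright: on the same log2 scale its probe A_52_P420504 read 6.35, 6.18 and 6.66 with PNP, against 6.77 and 5.97 in untreated replicates 2 and 3, with an outlier spot in untreated replicate 1. Acta2 entered the comparison through a dimmer probe, A_52_P210078, which had a value on every array and differed by 0.46 ± 0.25 (limma, adjusted p = 0.58). With that probe, the 4 peritubular markers summed to between 12.8 and 16.5 times the 75th percentile signal on PNP arrays. On untreated arrays they summed to between 14.5 and 16.0 times. The bright Acta2 probe is not in these sums. Of the germ cell markers, Sycp3 and Prm2 were above background on all 6 arrays and Zbtb16 on 5. Dazl and Tnp1 were above it on 1 array each, and Ddx4, Stra8 and Prm1 on no array. The macrophage markers Adgre1 and Ptprc were also absent throughout. The other 2 macrophage markers, Cd68 and Csf1r, summed to 4.34 to 7.96 on PNP arrays and to 5.27 to 9.68 on untreated arrays. The part of these markers in the results below was not tested.

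Dio3 and Dio2 lie on the same mouse chromosome, and the 250 bases before each gene's start are printed because the genes act on the hormone in opposite directions and showed unlike patterns on these arrays. The sequences are RefSeq's for the GRCm38.p6 assembly, at chr12:110278980-110279229 on the + strand for Dio3 and at chr12:90739039-90739288 on the - strand for Dio2, each read 5′ to 3′ toward the gene. Capitals mark the TATA box letters TATAAA and the cAMP response element letters TGACGTCA. They also mark the GC box, GGGCGG on either strand.
Dio3: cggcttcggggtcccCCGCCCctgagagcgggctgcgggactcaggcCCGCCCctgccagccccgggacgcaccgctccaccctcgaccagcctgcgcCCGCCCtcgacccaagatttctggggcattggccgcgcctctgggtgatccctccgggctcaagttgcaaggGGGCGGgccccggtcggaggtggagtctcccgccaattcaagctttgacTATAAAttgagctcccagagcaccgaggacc
Dio2: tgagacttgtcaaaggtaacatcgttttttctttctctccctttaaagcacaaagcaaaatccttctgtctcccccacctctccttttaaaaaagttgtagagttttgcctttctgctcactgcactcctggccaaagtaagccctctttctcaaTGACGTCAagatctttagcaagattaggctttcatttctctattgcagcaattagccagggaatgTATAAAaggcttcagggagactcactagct
Both strands were searched. The Dio3 window held 69.6% G or C and 21 CpG pairs, and the Dio2 window 41.6% and 2, against medians of 52.4% and 6 over 32851 promoter windows of this length. Each gene has 1 TATAAA, at 31 to 26 bases before the start in Dio3 and at 30 to 25 in Dio2, a run that 12.4% of all windows hold. Dio3 has 4 GC boxes and Dio2 has 0 (32.7% of all windows have at least 1), whereas TGACGTCA was found once, in Dio2, at 95 to 88 bases before the start (1.55% of windows). The receptor half-site letters AGGTCA (14% of windows), alone or as a direct repeat with 4 bases between the copies (0.0152%), were in neither window. These are matches of letters and no more.

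Dio3, the enzyme that inactivates T4 and T3, was lower in all 3 PNP samples than in any untreated sample. Levels are log2 values relative to the 75th percentile of the signals on the same array, so that 0 is the 75th percentile and negative values lie below it. The Dio3 probe A_55_P2091468 read -2.10, -2.54 and -2.50 in PNP replicates 1, 2 and 3, against -1.00, -1.07 and -1.84 in untreated replicates 1, 2 and 3. The highest PNP value thus stayed below the lowest untreated one, but the nearest pair of arrays, PNP replicate 1 and untreated replicate 3, lay close together. The means were -2.38 ± 0.24 with PNP and -1.30 ± 0.46 untreated (SD, n = 3 each), a log2 difference of -1.08 ± 0.30 (SE), or 2.11-fold higher in untreated cells. Across all 21479 genes and unnamed transcripts measured, 15.4% had groups that did not overlap (7.6% higher and 7.83% lower with PNP), and 0.256% were at least 2-fold lower with PNP without overlap. Dio3 was chosen by this contrast, so nothing is read from its place among them.

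The Dio3 signal was modest but clear of background. Before scaling it read 101, 78.5 and 67.7 units on the PNP arrays, against 153, 130 and 129 units on the untreated arrays, and all 6 spots were flagged well above background. The groups were apart in these unscaled values too. Their log2 difference was smaller, at -0.75, or 1.68-fold higher in untreated cells. Background correction with normexp, a separate setting with an offset of 50 and with scaling between arrays, gave -0.75. The authors' deposited log2 values gave -1.13.

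Read by slide, Dio3 descended in steps. Both arrays of slide 3, which are PNP, were the lowest at -2.54 and -2.50, the arrays of slide 2 lay between at -2.10 (PNP) and -1.84 (untreated), and both untreated arrays of slide 1 were the highest at -1.00 and -1.07. Such an order, slide 3 below slide 2 below slide 1 without overlap, was found in 2.29% of all genes and transcripts measured. Dio3 was chosen as lower with PNP without overlap, which already sets part of this order. Nothing is therefore read from the share. Samples of 1 group also differed by slide: the untreated array of slide 2 differed by -0.80 from the mean of the untreated arrays of slide 1, and the PNP arrays of slide 3 by -0.42 from the PNP array of slide 2. On slide 2, where both groups share a slide, PNP differed from untreated by -0.26, with 1 array on each side and no error estimate. Within array position 1 the difference was -1.12 and within array position 2 it was -1.23, close to the value over all arrays. The sign of these values, and of that on slide 2, follows from the groups not overlapping. The share of the slides in the Dio3 difference was not tested beyond these values.

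**Figure D1:**
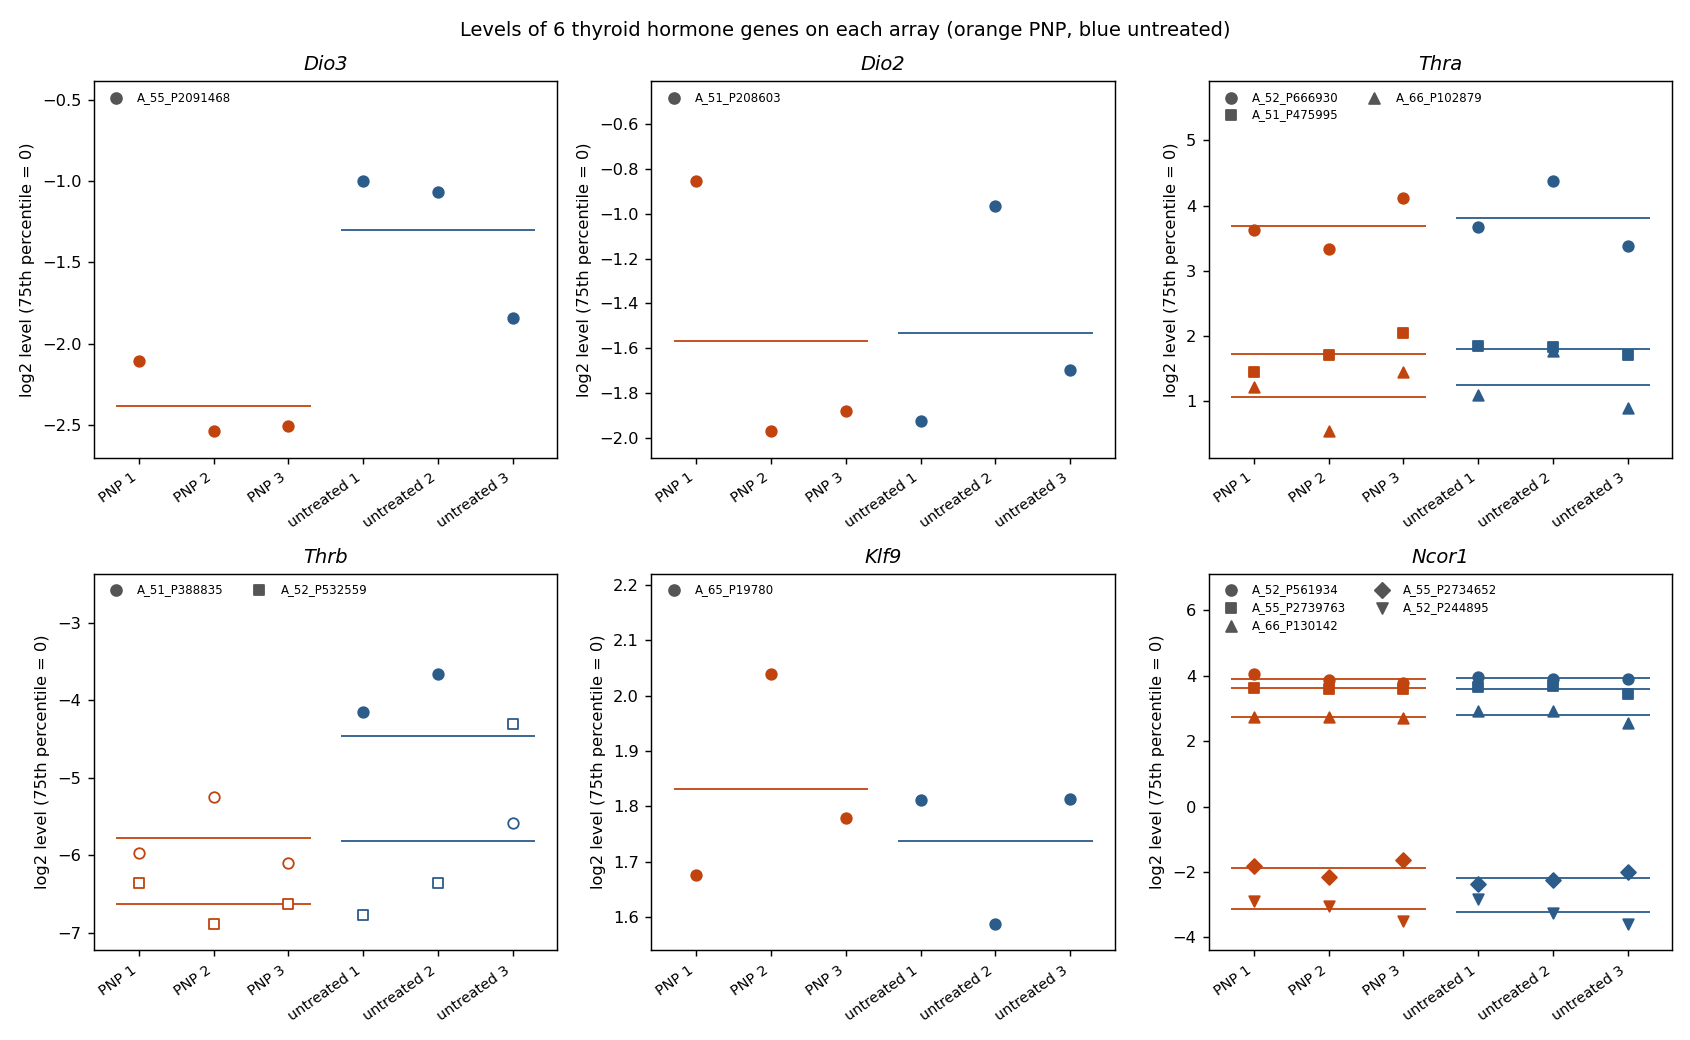
Log2 level of every probe of the 6 genes on each array, relative to the array's 75th percentile, with PNP in orange on the left and untreated in blue on the right. Filled points are well above background and open points are not, marker shapes are probes, and horizontal lines are group means of 3. Only Dio3, between -2.54 and -2.10 with PNP and between -1.84 and -1.00 untreated, has groups that do not overlap at probes above background on all arrays.

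**Figure D2:**
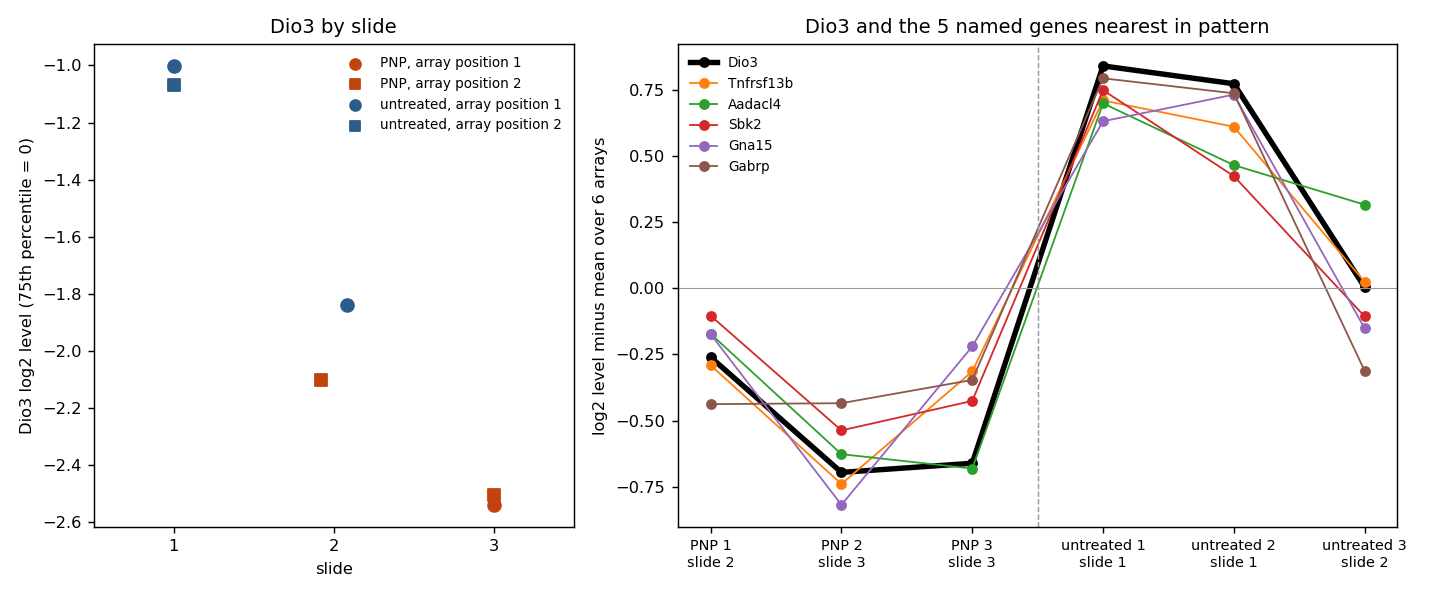
Left, Dio3 log2 level against slide, with PNP in orange, untreated in blue and marker shape for the array position. Right, Dio3 (black) and the 5 named genes nearest to it in pattern, each as log2 level minus its mean over the 6 arrays. Lines only join the points of 1 gene, and the values of Dio3 step down over slides 1, 2 and 3.

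The genes whose pattern over the 6 arrays came nearest to that of Dio3 were Tnfrsf13b, a receptor for the B cell factors BAFF and APRIL, the arylacetamide deacetylase-like Aadacl4, the kinase Sbk2, the G protein subunit Gna15, and Gabrp, the pi subunit of the GABA-A receptor. Nearness was the root mean square difference of centred log2 levels, which was 0.167, 0.194, 0.203, 0.219 and 0.225 in that order, where the median over 12509 named genes compared was 0.614. They were picked for following Dio3, so neither their PNP contrast nor their order by slide adds support. Of the 5, all but Gabrp also had the order slide 3 below slide 2 below slide 1. On slide 2 the PNP array differed from the untreated one by -0.32 for Tnfrsf13b, -0.49 for Aadacl4, 0.0028 for Sbk2, -0.02 for Gna15 and -0.13 for Gabrp, against log2 differences over all arrays between -0.99 and -0.71.

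The neighbours of Dio3 in its imprinted chromosome domain gave little signal. Dlk1, the paternally expressed gene at the far end of the domain, Begain and the antisense transcript Dio3os were above background on no array. The maternally expressed noncoding RNA Rian and the paternally expressed Rtl1 were above it on 2 PNP arrays and on 0 untreated arrays. The dimmest probe called above background lay at -4.10, -4.85 and -4.55 on PNP arrays, and at -4.57, -4.23 and -3.86 on untreated arrays. Rtl1 read -4.60 in PNP replicate 2 and -4.39 in untreated replicate 2, so its count partly follows the floor. Meg3, the best-studied noncoding RNA of the domain, was above background on 1 untreated array by 1 of its 4 probes. Mirg, a noncoding host of microRNAs, was the only 1 of the 7 that could be compared. It read -1.25, -0.43 and -0.03 with PNP, against -0.31, -0.38 and -1.19 untreated, and its groups overlapped with a log2 difference of 0.06 ± 0.36 (limma).

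Dio2, the enzyme that activates T4, showed no such separation. Its probe A_51_P208603 read -0.86, -1.97 and -1.88 in PNP samples, against -1.92, -0.97 and -1.70 in untreated samples. PNP replicate 1 and untreated replicate 2 stood above the other arrays of their groups, and the groups overlapped fully. The log2 difference was -0.04 ± 0.46 (SE, n = 3 each), the largest standard error among the 11 probes above background on all arrays. Both high arrays are at array position 2, but PNP replicate 3 at the same position was low, and the log2 difference of position 2 minus position 1 was 0.63 ± 0.33. On slide 2 the PNP array was higher than the untreated one, with a difference of 0.84, and within array positions 1 and 2 the differences were -0.16 and -0.40. The sign of the Dio2 value therefore depends on which arrays are set against each other.

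Dio1, the third deiodinase, which is typical of liver, kidney and thyroid, was above background on 2 PNP arrays by 1 of its 3 probes and on 0 untreated arrays. It was not compared, and the floor of detection differed between arrays as given for Rtl1. DIO proteins carry selenocysteine, so the machinery that inserts this amino acid and the enzymes that tag DIO2 for destruction were read beside them. They and the gene groups below were read from 1 fit of limma over all 21479 genes and unnamed transcripts, of which 0 (0%) passed an adjusted p of 0.05 (2134 had an unadjusted p under 0.05), and a gene counts as measured if some probe of it cleared background on every PNP array or on every untreated array. Standard errors given for these genes are limma's, which borrow from the spread of all genes, whereas those of the 6 thyroid hormone genes rest on their own 6 values, so they are not on the same footing. Of these 12 genes with Dio1 among them, 11 were measured, 0 passed, and their median log2 difference was -0.10, with 3 above zero and 8 below. The smallest p belonged to Sepsecs, the synthase of selenocysteinyl-tRNA, at -0.32 ± 0.20 with its other probe at -0.18, Usp33, a deubiquitinase that rescues DIO2, at 0.31 ± 0.20 with its other probe at 0.36, and Wsb1, a ubiquitin ligase adaptor for DIO2, at -0.46 ± 0.41 with its other probe at -0.09 (limma, adjusted p from 0.618 to 0.721). Sepsecs and Usp33 had groups that did not overlap, whereas the Wsb1 groups overlapped. Of all genes and transcripts measured 15.4% had groups that did not overlap, and this share stands beside every gene described as without overlap.

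Thra, the receptor gene that predominates in immature Sertoli cells, was clearly expressed, with 3 probes that all name the transcript NM_178060. The brightest, A_52_P666930, read 3.63, 3.33 and 4.11 with PNP, against 3.67, 4.37 and 3.38 untreated. A_51_P475995 read 1.44, 1.70 and 2.04 with PNP, against 1.84, 1.83 and 1.71 untreated. A_66_P102879 read 1.21, 0.53 and 1.44 with PNP, against 1.09, 1.76 and 0.89 untreated. The groups overlapped at every probe. The log2 differences were -0.12 ± 0.37, -0.06 ± 0.18 and -0.19 ± 0.38 (SE, n = 3 each) for the probes in the order given, all smaller than their standard errors.

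Of the Thra probes 2 differed more by the place of the array on its slide than by the treatment. At A_66_P102879 the arrays at position 2 (1.21, 1.44 and 1.76) were all above those at position 1 (0.53, 1.09 and 0.89), a log2 difference of position 2 minus position 1 of 0.64 ± 0.23. A_52_P666930 ran the same way with 0.58 ± 0.24, although PNP replicate 1 at position 2 fell just short of untreated replicate 1 at position 1. A_51_P475995, which names the same transcript, did not, at 0.02 ± 0.18. Klf9 went the other way, as given below, so that 2 of the 11 member probes above background on all arrays had array positions that did not overlap. Over all genes and transcripts measured this share was 22.4%, of which 11.5% were higher and 10.9% lower at position 2. Nr1d1, the circadian repressor REV-ERB alpha encoded on the strand opposite to Thra, read -0.05, -0.91 and 0.09 with PNP, against -0.85, 0.50 and -1.16 untreated, and was also higher at position 2 on every array. Its log2 difference between the treatments was 0.21 ± 0.45 (limma, adjusted p = 0.892).

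**Figure D3:**
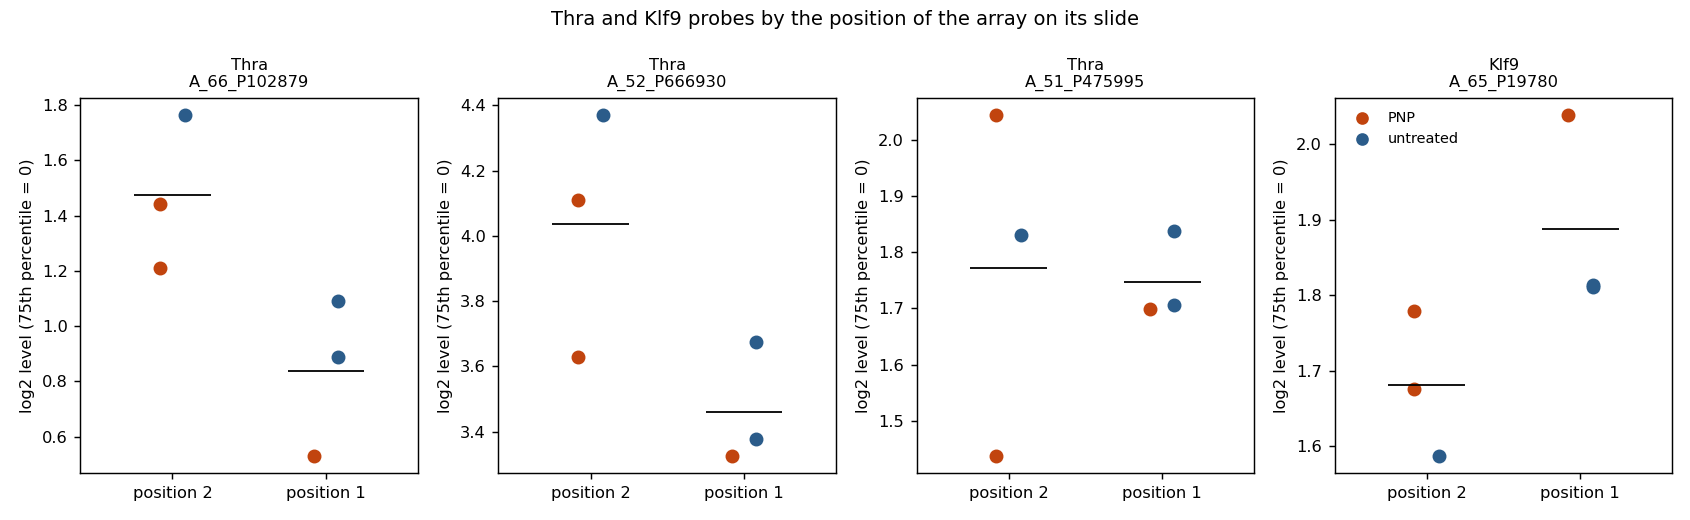
Log2 level of the 3 Thra probes and the Klf9 probe by array position, position 2 on the left and position 1 on the right, with PNP in orange, untreated in blue and lines at the mean of 3 arrays. Positions do not overlap at A_66_P102879 (higher at position 2) and at the Klf9 probe (lower at position 2), and they overlap at the other 2 Thra probes.

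Thrb, the receptor gene that dominates in liver and pituitary, was at the edge of what the arrays detect. Probe A_51_P388835 was well above background on 0 of 3 PNP arrays and on 2 of 3 untreated arrays, replicates 1 and 2. Its signals were 6.91, 12.0 and 5.59 units with PNP, against 17.2, 21.5 and 9.57 units untreated. The dimmest probe called well above background on those arrays read 25.4, 15.8 and 16.4 units with PNP, and 12.9, 14.5 and 31.7 units untreated, so the floor of detection itself differed from array to array. The measured log2 means were -5.77 ± 0.46 with PNP and -4.47 ± 1.00 untreated. The second Thrb probe, A_52_P532559, was above background on no array, and Thrb entered no comparison.

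The retinoid X receptors, with which the receptors bind DNA, were listed together with Nr1d1. Of these 4 genes 3 were measured, and 0 passed. Rxra, the retinoid X receptor alpha, had the smallest p: it read 1.84, 2.40 and 1.95 with PNP, against 3.18, 2.25 and 2.83 untreated, with a log2 difference of -0.69 ± 0.28 (limma, adjusted p = 0.48). PNP replicate 2 lay above untreated replicate 2, so its groups overlapped, and a second Rxra probe gave 0.04. Rxra was also lower at position 2 than at position 1 on every array, and within positions 1 and 2 its differences were -0.60 and -0.36. Rxrb gave -0.24 ± 0.28, and Rxrg, the gamma form of muscle and brain, was above background on no array.

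Ncor1, the corepressor that silences target genes under the unliganded receptor, was steady at its bright probes. The probe A_52_P561934 read 4.05, 3.87 and 3.77 with PNP, against 3.97, 3.90 and 3.89 untreated. A_55_P2739763 read 3.64, 3.60 and 3.60 with PNP, against 3.65, 3.68 and 3.44 untreated. A_66_P130142, which names the transcript NM_001252313, read 2.73, 2.74 and 2.72 with PNP, against 2.91, 2.94 and 2.56 untreated. These 3 bright probes differed by -0.03 ± 0.09, 0.03 ± 0.08 and -0.07 ± 0.12 on the log2 scale (SE, n = 3 each). At A_66_P130142 the spread was larger in the untreated group, with an SD of 0.01 with PNP and 0.21 untreated.

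The other Ncor1 probes were dim and less precise. A_55_P2734652 read -1.82, -2.15 and -1.65 with PNP, against -2.37, -2.24 and -1.99 untreated, a difference of 0.33 ± 0.18. It leaned higher with PNP while untreated replicate 3 stayed inside the PNP range, so the groups overlapped. A_52_P244895, for the transcript NM_177229, read -2.89, -3.05 and -3.49 with PNP, against -2.84, -3.25 and -3.60 untreated, a difference of 0.08 ± 0.28. All 5 Ncor1 probes were above background on all 6 arrays.

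Around Ncor1, all 6 other genes of the corepressor complex were measured and 0 passed, with a median log2 difference of -0.15. Hdac3, the deacetylase that the corepressor activates, read 1.18, 1.21 and 1.53 with PNP, against 1.84, 1.78 and 1.62 untreated, without overlap, and gave -0.44 ± 0.20, while its other probe gave -0.48 (limma, adjusted p = 0.522). The Hdac3 difference was -0.44 on slide 2, and -0.52 and -0.43 within positions 1 and 2. With groups that did not overlap, the sign of these values was fixed in advance. Coro2a, a WD-repeat component of the complex, gave 0.71 ± 0.35, but it was above background on all 3 PNP arrays and on 2 of 3 untreated ones, so it entered through the group in which it was brighter. Of 11 coactivator genes, all measured, 0 passed. The smallest p belonged to Kat2b, the acetyltransferase PCAF, at 0.57 ± 0.25, Carm1, an arginine methyltransferase, at -0.37 ± 0.19 with its other probe at 0.05, and Ppargc1a, the metabolic coactivator PGC-1 alpha, at 0.44 ± 0.26 with its other probe at 0.31 (limma, adjusted p from 0.503 to 0.599). The Carm1 groups did not overlap, whereas those of Kat2b and Ppargc1a did. Kat2b stepped up over slides 1, 2 and 3, as 2.45% of all genes and transcripts did, and its difference on slide 2 was -0.03.

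Klf9 is a zinc finger factor that T3 induces directly in brain and other tissues and serves as a readout of hormone action. Its probe A_65_P19780 read 1.68, 2.04 and 1.78 with PNP, against 1.81, 1.59 and 1.81 untreated. The highest and the second lowest array were both PNP, and the groups overlapped. The means were 1.83 ± 0.19 with PNP and 1.74 ± 0.13 untreated (SD, n = 3 each), and the log2 difference was 0.09 ± 0.13 (SE). By position, the arrays at position 2 (1.68, 1.78 and 1.59) were all below those at position 1 (2.04, 1.81 and 1.81), with a log2 difference of position 2 minus position 1 of -0.21 ± 0.09. On slide 2 the PNP array was lower than the untreated one, by a log2 difference of -0.14. Without scaling between arrays the Klf9 difference was 0.42. The 75th percentile of the log2 signal, which the scaling removes, was between 8.59 and 8.83 on PNP arrays and between 8.09 and 8.85 on untreated arrays.

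**Figure D4:**
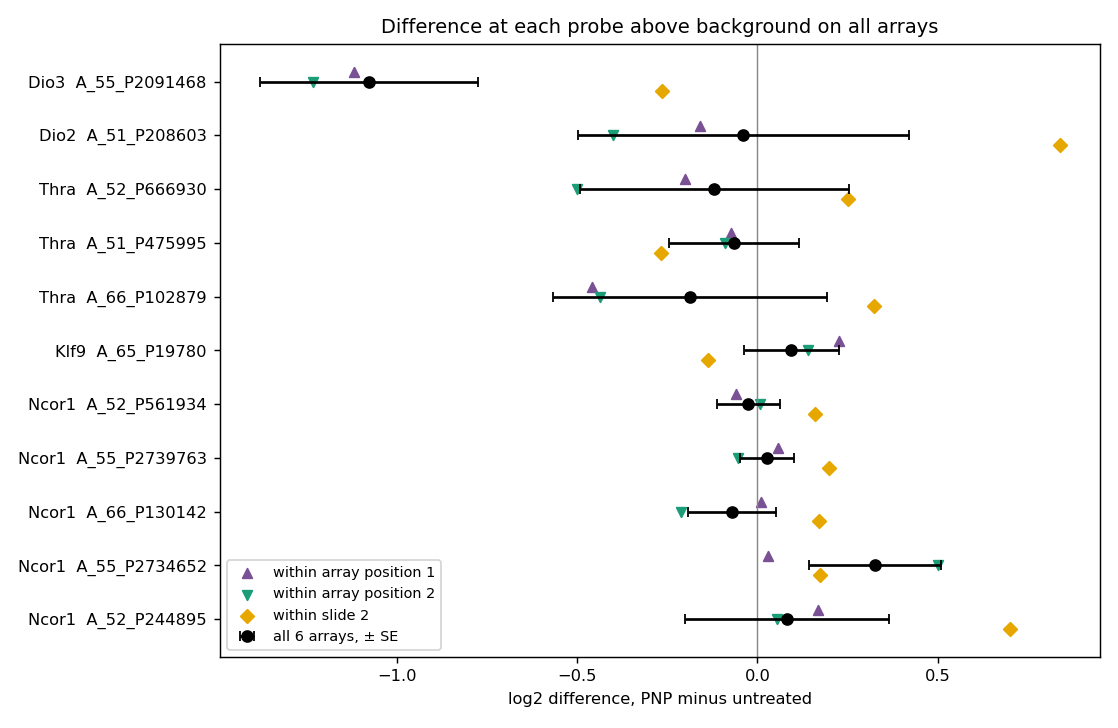
Log2 difference, PNP minus untreated, for the 11 probes above background on all arrays. Black points with bars are all 6 arrays ± SE, purple and green triangles are the differences within array positions 1 and 2, and yellow diamonds are the 1 pair of arrays on slide 2. Dio3 is at -1.08 ± 0.30 over all arrays and at -0.26 on slide 2, while all other probes lie within 0.33 of zero over all arrays.

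Of the other Krüppel-like factor genes 10 of 16 were measured and 0 passed. Klf7, known from neuronal and adipocyte differentiation, read 3.00, 2.76 and 2.99 with PNP, against 2.32, 1.98 and 2.55 untreated, without overlap, and gave 0.63 ± 0.22 (limma, adjusted p = 0.398). A second Klf7 probe gave -0.02. Klf13 and Klf16, close relatives of Klf9, gave -0.26 ± 0.20 and -0.22 ± 0.22. The median of the 10 was -0.11, with 4 above zero and 6 below.

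Genes known to respond to thyroid hormone in liver, heart, brain or fat were measured for 19 of 28, and 0 passed. Their median log2 difference was -0.23, with 7 above zero and 12 below, beside medians of -0.04 over all genes and transcripts and -0.09 over the named genes. Fasn, the fatty acid synthase, read 3.80, 4.10 and 4.25 with PNP, against 4.69, 4.65 and 4.31 untreated, without overlap, and gave -0.50 ± 0.22 (limma, adjusted p = 0.501). Ucp2, a mitochondrial uncoupling protein, gave -0.44 ± 0.22 with a second probe at -0.39 (limma, adjusted p = 0.54). Hr, a classical hormone-induced corepressor of brain and skin, was above background on no array. Thrsp, the lipogenic Spot 14 gene, and G6pc, the last enzyme of glucose release, were above it on 3 PNP and 2 untreated arrays. Both thus entered through the PNP arrays alone, and they are among the 7 above zero, at 0.35 and 0.19. A second Thrsp probe, above background on 0 PNP arrays and 1 untreated array, gave -0.35.

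Targets known from Sertoli cells were measured for 5 of 7 genes, and 0 passed. Cdkn1b, the cell cycle inhibitor p27 that rises as T3 stops Sertoli cell division, read 2.35, 1.44 and 2.12 with PNP, against 0.89, 1.17 and 1.90 untreated. Its groups overlapped, and its log2 difference was 0.65 ± 0.33 over all arrays but 0.04 within array position 1 and 1.06 within array position 2 (limma, adjusted p = 0.549). Cdkn1a, the inhibitor p21, gave -0.22 ± 0.27 at its brightest probe and 0.54 at the other. Ncam1, an adhesion molecule of immature Sertoli cells, gave -0.02 ± 0.20 at its brightest probe and -0.55, -0.03 and -0.21 at the others. Amh and Cyp19a1, which T3 lowers in immature Sertoli cells of rats, were above background on no array.

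Entry of the hormone into the cell depends on transporters, of which 6 of 15 genes with the binding proteins were measured, and 0 passed. Slc7a5, the large neutral amino acid transporter LAT1, which also carries thyroid hormone, read 0.41, 0.74 and 1.07 with PNP, against 1.66, 1.24 and 1.29 untreated. The groups did not overlap, and the log2 difference was -0.65 ± 0.24 (limma, adjusted p = 0.43). The Slc7a5 difference was -0.87 on slide 2, and -0.73 and -0.50 within array positions 1 and 2. Because the groups did not overlap, these values could only be negative. Slco4a1, an organic anion transporter, gave -0.40 ± 0.27, with its other probe at -0.07. The binding proteins Ttr and Crym were above background on no array. Of the genes that make the hormone in the thyroid gland 6 were on the array, and 1 of them, Tg, the thyroglobulin precursor, was measured, with -0.22 ± 0.24 at its brighter probe and 0.02 at the other.

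Over all 10 groups of genes together, 112 of 113 genes were on the array and 73 were measured. With limma 0 of the 73 passed an adjusted p of 0.05, as 0 of all 21479 genes and transcripts did (0%), and the smallest adjusted p of the 73 was 0.398. Without adjustment 4 of the 73 (5.48%) had a p under 0.05, beside 9.94% of all genes and transcripts. Klf7 was the 1 with a higher mean with PNP (6.86% of all), and Slc7a5, Rxra and Fasn were the 3 with a lower one (3.07% of all). The median log2 difference of the 73 was -0.10, with 24 above zero and 49 below. Array positions did not overlap for 23 of the 73, or 31.5%, beside the 22.4% given above.

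**Figure D5:**
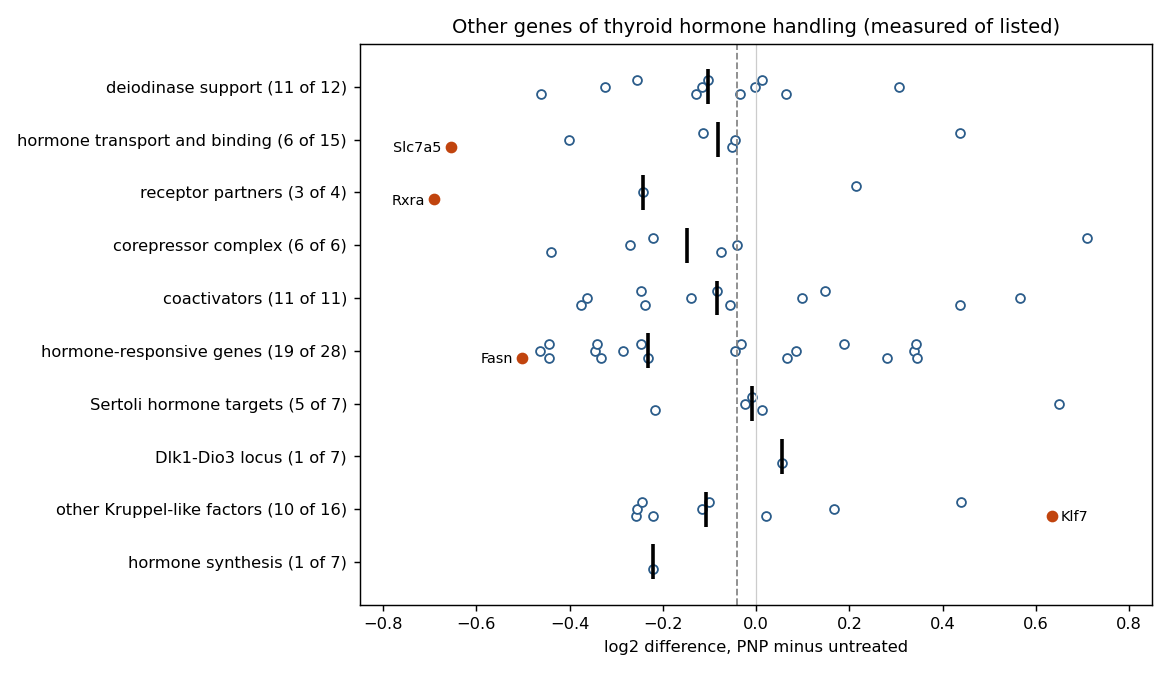
Log2 difference, PNP minus untreated, of each measured gene of the 10 groups, with the number measured of the number listed. Filled orange points have an unadjusted p under 0.05 in limma, short vertical lines are group medians and the dashed line is the median of all genes and transcripts, -0.04. The 4 filled points are Slc7a5, Rxra, Fasn and Klf7. Every group with more than 1 measured gene lies on both sides of zero, the corepressor group with 1 gene above and 5 below.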

How the data were processed

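TM4 RNA was prepared with TRIzol, amplified linearly and labelled with the dye Cy3 before hybridisation, as the labels' protocols state. The deposited intensity values are the processed signals of Agilent Feature Extraction, with the background already subtracted and no scaling between arrays; the file headers give version 11.5.1.1 and the submitters' processing notes 10.7. The authors' deposited log2 table has a median of 4.74 in each array and served as an alternative. How it was normalized is not given in the sources used here.

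Spots of a probe were averaged without outliers, log2 was taken and the 75th percentile of the array subtracted. Probes were kept where every PNP array or every untreated array cleared background (28208 probes), and a value on all 6 arrays was required. The brightest such probe stood for its gene. Accessions were matched to a RefSeq table of GRCm38.p6, used for names and promoter windows (5 of the 6 genes had one), because the headers name another build. Groups and replicate numbers came from the labels. PNP was compared with untreated in R 4.3.3 by the lmFit and eBayes functions of limma 3.58.1 in a two-sided test with Benjamini-Hochberg adjustment over 21479 units, 13538 of them named genes; the code was tested on simulated data. Standard errors of the probes of the 6 genes come from the spread within each group alone, and those of all other genes are limma's moderated ones. The 6 genes and the 10 gene lists were chosen with earlier results of these data known. The text names the 6 genes, the 3 measured genes of each list with the smallest p, the 5 genes nearest to Dio3 and cell markers; other genes, named mostly as absent, were chosen after their values were seen. Some listed genes that this rule picks are not reported here. Alternatives were normexp (offset 50, with the median signal of a spot), quantile normalization, median centring, looser and stricter filters, blocks for array position, slide and replicate number, array weights, the median of a gene's probes, the authors' values, other thresholds, each position alone and each array left out. A run without scaling was added after seeing the data.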

Additional observations from a re-analysis of the deposited data

How the results depend on the processing

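The count of genes passing the test was 0 in limma and in the alternatives not named here. It was 1365 (966 higher, 399 lower) with array weights, which gave untreated replicate 1 a weight of 9.11 and every other array 0.466 to 0.798, 538 within array position 1 (478 higher, 60 lower), 78 within array position 2 (74 higher, 4 lower) and 2134 at an unadjusted p under 0.05. Position 1 has a single PNP array and position 2 a single untreated one, each assumed to vary like the other group. The count for the 73 pathway genes was 2 with array weights (Rxra and Slc7a5, both lower) and 4 at an unadjusted p. The cause of these shifts was not tested. Leaving out any 1 array gave 0 to 0 for both counts. With the replicate number as a block both were 0. Samples of equal number had correlations of deviations across genes of -0.409, -0.553 and -0.406. They always lay at opposite array positions, so these values cannot show whether equal numbers were pairs. The numbers were not read as pairs.

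The Dio3 difference was negative in all 18 alternatives run for it, from -1.35 without untreated replicate 3 to -0.26 with slide as a fixed block. That block contrasts only PNP replicate 1 with untreated replicate 3. Dio3 was chosen for groups that did not overlap. Its sign could therefore not change where arrays were only left out, weighted or taken by position or slide, and nothing is read from it there. Leaving out 1 array gave -1.35 to -0.93. The other probes kept no common sign, except Ncor1 A_55_P2734652, which was positive in all 18 (0.03 to 0.66). Dio2 was below zero in 12 of 18 (-0.40 to 0.84) and Klf9 in 3 of 18 (-0.14 to 0.42). Of 198 values of probes under these alternatives, 181 moved by less than the spread between replicates and 17 by more. Leaving out 1 array cannot move a value by as much as that spread, and the replicate block returned the main value. Those runs are among the 181 by construction, so this count is no measure of stability. Median centring lowered all differences by the same step: the median over all genes and transcripts was -0.15 in place of -0.04, and Klf9 was at -0.01. Dim probes limit Thrb and most of the genes around Dio3.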
